A study of Homo sapiens with 12 samples.

Results

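MYLK, DCLK1 and DAPK1 are 3 kinase genes whose catalytic domains belong to the calmodulin-dependent kinase branch of the protein kinases. They are 3 of the 8545 genes named on the arrays and were followed by every probe set annotated to them, 5 of 16376, with 1 for MYLK (202555_s_at), 2 for DCLK1 (205399_at and 215303_at) and 2 for DAPK1 (203139_at and 211214_s_at). RNA came from SF539 and SNB19, established human glioblastoma cell lines, each transfected with the PARK2 siRNA called siRNA#2, with the PARK2 siRNA called siRNA#1, or with a scramble siRNA. Cells were collected 48 h after transfection with Lipofectamine RNAiMAX, a lipid reagent, and each of the 6 groups had 2 arrays. PARK2 encodes parkin, a ubiquitin ligase best known for its part in the clearance of damaged mitochondria; its own level was not analysed here, so the depth of the knockdown is not given. All cells received an siRNA and there was no untransfected sample, so either the PARK2 siRNAs or the scramble siRNA can stand behind a difference between them. The labels do not say whether the 2 replicates of a group were separate cultures, so the p-values below cover no more than the spread of these samples and that spread may be technical.

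Calmodulin is a small protein that binds calcium and then releases the autoinhibition of the kinases that it docks on. MYLK, myosin light chain kinase, is one of these: it phosphorylates the regulatory light chain of myosin II and so drives contraction in smooth muscle and in the cortex of other cells. DAPK1, death-associated protein kinase 1, is also released by calmodulin, takes part in cell death and autophagy, and is known for silencing by promoter methylation in several tumour types. DCLK1, doublecortin-like kinase 1, joins microtubule-binding doublecortin domains to a kinase domain that resembles those of the calmodulin-dependent kinases, and it is known from growing neurons and from glioma cells.

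The 3 genes were chosen for how they behaved on these arrays. Averaged over both lines, the change with the PARK2 siRNAs against scramble put MYLK in the 6th place and DCLK1 in the 7th place and the change in SF539 put DAPK1 in the 5th place. These rankings took the brightest probe set of each gene and kept genes with a limma adjusted p under 0.05 that were higher with each siRNA in every line ranked. DAPK1, with a mean of 1.43 over both lines but no higher value with siRNA#2 in SNB19, is therefore absent from the ranking over both lines. MYLK averaged 1.48 and DCLK1 1.47 on the log2 scale, with CBX5 just inside the 10 largest kept at 1.41 and EDNRB just outside at 1.40. In SF539, DAPK1 differed by 2.25, with VCAM1 just inside at 2.03 and TMT1A just outside at 2.00. The contrasts behind this choice are therefore given as descriptions without a test, and tests are kept for contrasts that the choice did not use.

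The promoters of the genes are shown as a description, because their annotated start sites differ in base composition. The genes were chosen for being higher with the siRNAs, and DAPK1 was not higher with siRNA#2 in SNB19. The windows run from 250 bases before to 50 bases after each annotated start and come from RefSeq on GRCh38.p14, given 5′ to 3′ on the strand of the gene. MYLK has 1 window here. Whether transcripts of the full-length kinase start there was not checked, so this window is not read as the promoter of the kinase. Capitals in MYLK mark a CArG box, the A- and T-rich motif bound by serum response factor, and a stretch with the TATA box letters TATAAA on both strands. Capitals in the DCLK1 windows mark TGACTCA, the letters of the AP-1 site, read on the gene's strand at the first start and on the opposite strand at the start listed after it. Capitals in DAPK1 mark CCAAT, read on the opposite strand; the same letters also stand, in lower case, in the MYLK window and in the first DCLK1 window.
MYLK, chr3:123620499-123620798, minus strand: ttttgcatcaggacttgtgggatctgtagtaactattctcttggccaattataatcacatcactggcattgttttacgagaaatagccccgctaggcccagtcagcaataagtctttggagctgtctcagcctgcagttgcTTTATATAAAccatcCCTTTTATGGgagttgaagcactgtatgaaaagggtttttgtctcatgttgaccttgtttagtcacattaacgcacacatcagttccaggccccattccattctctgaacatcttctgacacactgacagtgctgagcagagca
DCLK1 first start, chr13:36131890-36132189, minus strand: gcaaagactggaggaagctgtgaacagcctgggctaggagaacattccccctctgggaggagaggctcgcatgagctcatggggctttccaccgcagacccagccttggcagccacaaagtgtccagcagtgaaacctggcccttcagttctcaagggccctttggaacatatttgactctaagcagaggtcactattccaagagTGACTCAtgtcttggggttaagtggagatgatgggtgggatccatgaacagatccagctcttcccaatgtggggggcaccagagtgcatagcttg
DCLK1 further start, chr13:35855618-35855917, minus strand: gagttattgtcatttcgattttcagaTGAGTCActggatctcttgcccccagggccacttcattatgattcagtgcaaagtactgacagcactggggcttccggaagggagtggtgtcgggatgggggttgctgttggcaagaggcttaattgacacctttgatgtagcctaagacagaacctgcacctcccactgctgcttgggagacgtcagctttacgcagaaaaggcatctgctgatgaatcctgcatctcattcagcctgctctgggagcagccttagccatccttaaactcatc
DAPK1 first start, chr9:87497617-87497916, plus strand: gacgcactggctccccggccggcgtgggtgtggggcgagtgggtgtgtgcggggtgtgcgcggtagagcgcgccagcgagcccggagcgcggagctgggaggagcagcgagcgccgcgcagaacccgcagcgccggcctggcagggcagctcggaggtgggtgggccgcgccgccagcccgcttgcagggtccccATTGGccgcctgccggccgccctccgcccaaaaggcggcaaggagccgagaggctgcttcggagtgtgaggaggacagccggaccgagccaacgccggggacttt

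The DAPK1 window was the richest in CpG of the 4 printed, with 37 CpG and 75.3% GC, and the second DAPK1 start had 33 CpG. The MYLK window had 3 CpG and 43.7% GC. DCLK1 had a start of each kind, with 2 CpG at the first, 27 at the second and 5 at the further start printed above. The median over 35114 promoters of 300 bases was 14 CpG. The CArG box, searched on both strands, was present in 1.29% of all promoters, TGACTCA in 4.95%, TATAAA in 11.5% and CCAAT in 34.6%. The GC box GGGCGG was found in 45% of all promoters, among them the second DCLK1 start and both DAPK1 starts. The TEAD element CATTCC, present in 14% of promoters, was found in the MYLK window, the first DCLK1 window and at the second DAPK1 start. The interferon response element, present in 3.57% of promoters, was found in none of the windows of the 3 genes, and neither was the hypoxia core ACGTG, present in 21.4%. These motifs were picked after the sequences had been seen, and a match describes letters in a window, not a bound site or a cause.

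Values are the deposited log2 expression values. The lower quartile of all probe sets lay between 3.93 and 4.02 on the 12 arrays and the median between 5.94 and 6.14. MYLK averaged above 94.6% of all probe sets, DCLK1 205399_at above 55.6% and DAPK1 203139_at above 63%, so these 3 probe sets carry the results. DCLK1 215303_at and DAPK1 211214_s_at averaged 3.86 and 3.25, below the lower quartile, and the values come without a detection call. Replicate arrays of a group correlated between 0.991 and 0.998 over all probe sets, and the median SD between replicates was 0.126 in the SF539 siRNA#2 arrays, against 0.0658 to 0.0914 in the other groups.

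The labelled cell type was checked on marker genes. Of 7 measured astroglia and glioma genes, 3 were above the lower quartile in SF539 (VIM, SOX2 and EGFR) and 6 in SNB19. GFAP, the defining astrocyte filament, was between 3.61 and 3.95 in SF539, near or below the lower quartile, and OLIG2 was below it in both lines. In SNB19 GFAP averaged 10.46 with siRNA#2 and 10.50 with siRNA#1, against 6.90 with scramble, so this marker moved with the siRNAs there; its part in the results below was not tested. CD3D was the 1 gene of 3 leukocyte markers above the lower quartile in both lines, while PTPRC was below it. Of the 4 epithelial markers EPCAM and CDH1 were below it and KRT8 and KRT18 above it in both lines. Of the 4 endothelial markers PECAM1 and VWF were above it in both lines, and all 3 neuronal markers (SYP, SYT1 and SNAP25) were too. All 4 smooth muscle markers (ACTA2, MYH11, DES and CNN1) were above it in both lines, with values between 4.17 and 5.67 in SF539. Those SF539 values were below the median of all probe sets. Without a detection call, a value above the lower quartile does not show that a marker is expressed.

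**Figure D1:**
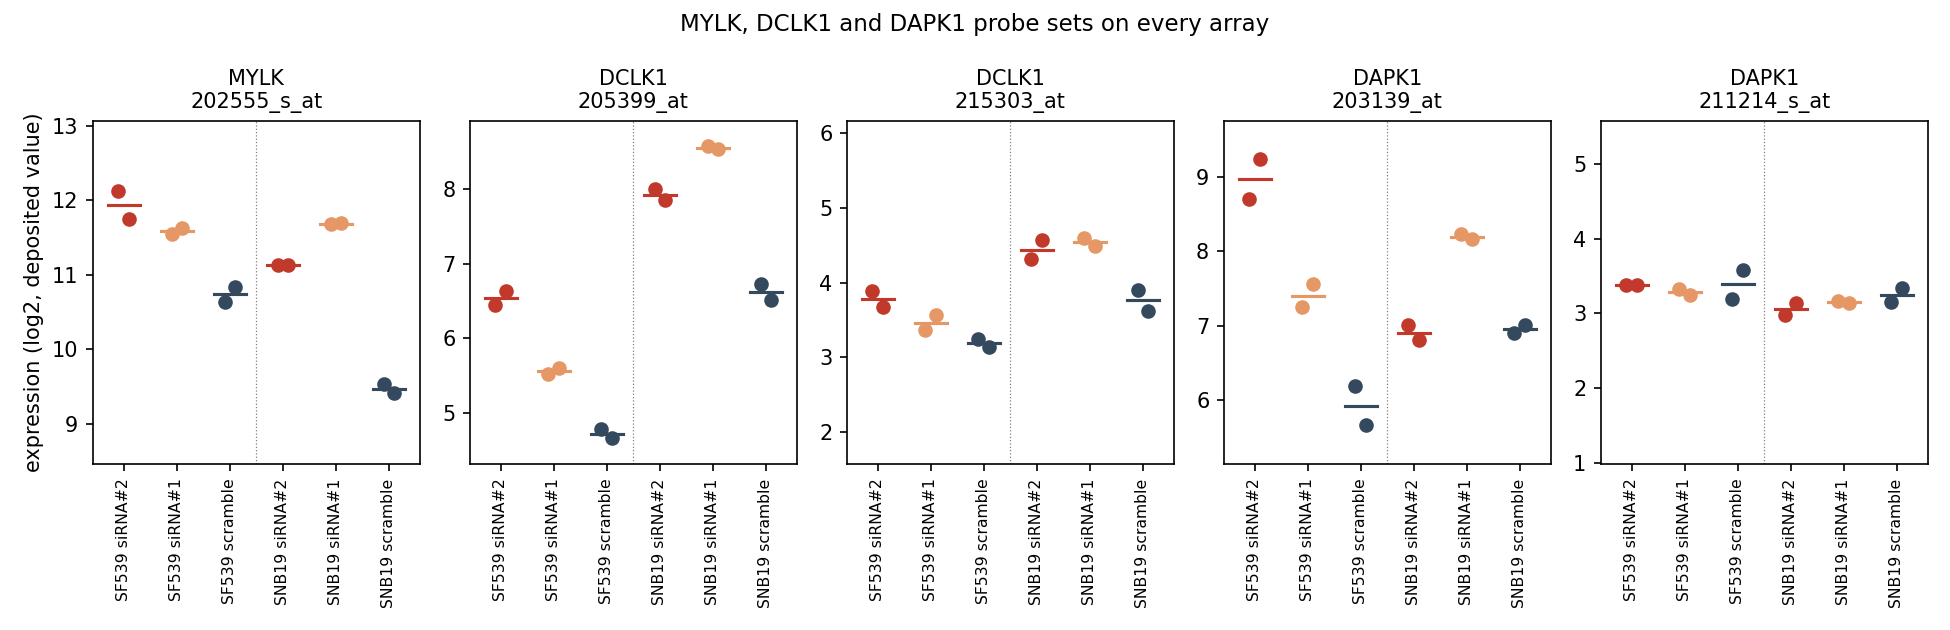
Deposited log2 value of each member probe set (vertical axis) on each of the 12 arrays, by line and siRNA (horizontal axis); points are arrays and bars are means of 2 arrays. Each panel has its own axis of equal length because levels of different probe sets are not compared. All siRNA#2 and siRNA#1 points of MYLK and DCLK1 205399_at lie above the scramble points of the same line, DAPK1 203139_at in SNB19 is high with siRNA#1 only, and DAPK1 211214_s_at is flat.

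MYLK was higher with both PARK2 siRNAs in both lines. In SF539 it stood at 12.12 and 11.75 on the siRNA#2 arrays, at 11.55 and 11.63 on the siRNA#1 arrays, and at 10.64 and 10.84 on the scramble arrays. In SNB19 it stood at 11.14 and 11.13 on the siRNA#2 arrays, at 11.68 and 11.70 on the siRNA#1 arrays, and at 9.54 and 9.41 on the scramble arrays. All 4 siRNA arrays were above both scramble arrays in each line. The choice favoured such a separation, and its share over all probe sets was not counted. Both siRNAs together were 1.02 ± 0.11 (SE) above scramble in SF539, a 2.03-fold difference, and 1.94 ± 0.11 in SNB19, a 3.83-fold difference. The background for these contrasts was 9.09% of all probe sets passing an adjusted p of 0.05 in SF539 (limma, Benjamini-Hochberg) and 28.6% in SNB19. Nothing is read from that for MYLK, which was chosen on them. In bulk RNA, fewer cells of a type and less RNA per cell cannot be told apart.

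The siRNAs ranked differently in the 2 lines. In SF539, MYLK was 1.20 above scramble with siRNA#2 and 0.85 with siRNA#1. In SNB19 it was 1.66 above scramble with siRNA#2 and 2.21 with siRNA#1. Both siRNA comparisons of a line share its scramble arrays, so siRNA#2 was also set against siRNA#1 directly, a contrast in which scramble cancels. In SF539 the difference was 0.34 (95% interval 0.06 to 0.63) and did not pass (limma adjusted p = 0.172), with 1.68% of all probe sets passing. In SNB19 MYLK was lower with siRNA#2 by 0.55, or -0.55 on the log2 scale (interval -0.84 to -0.27, limma adjusted p = 0.0393), where 4.26% of all probe sets passed. That call passed in 12 of 22 alternative settings. It was lost without any 1 SNB19 array or either SF539 siRNA#1 array, with adjusted p between 0.0632 and 0.2.

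The response of MYLK to the siRNAs was smaller in SF539 than in SNB19. The difference of the 2 responses, SF539 minus SNB19, was -0.91 ± 0.16 (SE; interval -1.26 to -0.57; limma adjusted p = 0.00327), where 16.2% of all probe sets passed. The choice, made on the sum of the lines, did not use this difference. Under scramble MYLK averaged 10.74 ± 0.14 (SD, n = 2) in SF539, against 9.47 ± 0.09 in SNB19. That difference of 1.27 ± 0.13 passed (limma adjusted p = 1.93e-05), as did 44.4% of all probe sets. With the siRNAs the lines were closer, SF539 being 0.35 ± 0.09 above SNB19 (limma adjusted p = 0.00751), where 48.9% of all probe sets passed. In order of level, MYLK was highest in SF539 with siRNA#2 (11.93), then in SNB19 with siRNA#1 (11.69), in SF539 with siRNA#1 (11.59), in SNB19 with siRNA#2 (11.14), and in the scramble groups of SF539 and SNB19. The 2 highest groups differed by 0.25, less than the SD of 0.26, and the other neighbours by more than their SDs.

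DCLK1 at 205399_at was also higher with both PARK2 siRNAs in both lines. In SF539 it stood at 6.45 and 6.63 on the siRNA#2 arrays, at 5.52 and 5.60 on the siRNA#1 arrays, and at 4.78 and 4.66 on the scramble arrays. In SNB19 it stood at 8.00 and 7.85 on the siRNA#2 arrays, at 8.58 and 8.54 on the siRNA#1 arrays, and at 6.73 and 6.52 on the scramble arrays. The siRNA arrays did not overlap with scramble in either line, and neither did the siRNAs with each other. The choice favoured the separation from scramble, and the share of all probe sets separated like this was not counted. The difference from scramble was 1.33 ± 0.10 (SE) in SF539, a 2.52-fold difference, and 1.62 ± 0.10 in SNB19, a 3.07-fold difference, given without a test.

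The stronger siRNA for DCLK1 was siRNA#2 in SF539 and siRNA#1 in SNB19. In SF539 siRNA#2 exceeded siRNA#1 by 0.98 ± 0.11 (SE; interval 0.73 to 1.23; limma adjusted p = 0.00674), a 1.97-fold difference. The call was lost without the first SF539 siRNA#1 array (adjusted p = 0.1) and with the SF539 arrays fitted alone (0.174). In SNB19 the contrast was -0.63 ± 0.11 (interval -0.88 to -0.39; limma adjusted p = 0.0112), lower with siRNA#2. Leaving out any 1 of the 4 SNB19 siRNA arrays ended that call, with adjusted p from 0.0503 to 0.111. Averaging both DCLK1 probe sets also ended it (-0.37, adjusted p = 0.0601). The responses of the lines to both siRNAs together differed by -0.29 (interval -0.59 to 0.01), which did not pass (limma adjusted p = 0.188).

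DCLK1 was lower in SF539 than in SNB19 whichever siRNA was given. Under scramble it averaged 4.72 ± 0.09 (SD, n = 2) in SF539, against 6.62 ± 0.15 in SNB19, a difference of -1.90 (limma adjusted p = 3.64e-07). With the PARK2 siRNAs the difference was -2.19 (adjusted p = 3.61e-09 by limma). By level the order was SNB19 siRNA#1 (8.56), SNB19 siRNA#2 (7.93), SNB19 scramble (6.62), SF539 siRNA#2 (6.54), SF539 siRNA#1 (5.56) and SF539 scramble (4.72). SNB19 scramble and SF539 siRNA#2 overlapped, differing by 0.08 with an SD of 0.15.

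The second DCLK1 probe set, 215303_at, followed the first at low signal. In SF539 its values were 3.88 and 3.67 with siRNA#2, 3.36 and 3.56 with siRNA#1, and 3.24 and 3.14 with scramble. In SNB19 they were 4.32 and 4.56 with siRNA#2, 4.60 and 4.50 with siRNA#1, and 3.90 and 3.62 with scramble. Again all siRNA arrays were above scramble, a separation not counted over all probe sets. The difference was 0.43 in SF539 and 0.73 in SNB19. The contrast of siRNA#2 with siRNA#1 was 0.32 in SF539 and -0.10 in SNB19, and passed in neither (limma adjusted p = 0.223 and 0.791). The line difference under scramble was -0.57 (limma adjusted p = 0.00576), lost without the first SNB19 scramble array (0.0586). With line means subtracted, the 2 DCLK1 probe sets correlated at 0.925 over the 12 arrays.

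DAPK1 at 203139_at depended on both the line and the siRNA. In SF539 it stood at 8.70 and 9.23 on the siRNA#2 arrays, at 7.25 and 7.56 on the siRNA#1 arrays, and at 6.19 and 5.67 on the scramble arrays. In SNB19 it stood at 7.01 and 6.80 on the siRNA#2 arrays, at 8.23 and 8.16 on the siRNA#1 arrays, and at 6.90 and 7.01 on the scramble arrays. The 3 SF539 groups did not overlap, whereas in SNB19 the siRNA#1 arrays stood alone and the siRNA#2 arrays lay around the scramble arrays. How many of all probe sets separate in these ways was not counted. In SF539, where DAPK1 was chosen, siRNA#2 was 3.03 and siRNA#1 1.47 above scramble, given without a test.

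In SNB19, which the choice of DAPK1 did not use, DAPK1 rose with siRNA#1 by 1.24 ± 0.21 (SE; limma adjusted p = 0.00157), with 22.9% of all probe sets passing. With siRNA#2 the difference was -0.04 (interval -0.50 to 0.41; limma adjusted p = 0.916), with 25.8% of all probe sets passing, and it turned to 0.10 when each array was centred on its median. Both siRNAs together gave 0.60 ± 0.18 (interval 0.20 to 1.00; limma adjusted p = 0.029). The pooled call was lost without either SNB19 scramble array, either SNB19 siRNA#1 array or the first SNB19 siRNA#2 array (adjusted p from 0.0588 to 0.171). It was also lost when both DAPK1 probe sets were averaged (0.23, adjusted p = 0.0762).

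The siRNAs differed for DAPK1 in opposite directions in the 2 lines. In SF539 siRNA#2 exceeded siRNA#1 by 1.56 ± 0.21 (SE; interval 1.10 to 2.02; limma adjusted p = 0.0102). That call was lost without the first SF539 siRNA#1 array (0.116) and with the SF539 arrays alone (0.228). In SNB19 siRNA#2 was below siRNA#1, with a contrast of -1.29 (interval -1.75 to -0.83; limma adjusted p = 0.00684). It was lost without either SNB19 siRNA#1 array (adjusted p = 0.072 and 0.0502) or the second SNB19 siRNA#2 array (0.0739). By level DAPK1 was highest in SF539 with siRNA#2 (8.96), then in SNB19 with siRNA#1 (8.20), SF539 with siRNA#1 (7.40), SNB19 scramble (6.95), SNB19 with siRNA#2 (6.91) and SF539 scramble (5.93). SNB19 scramble and siRNA#2 differed by 0.04, less than their SD of 0.15.

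The other DAPK1 probe set, 211214_s_at, showed none of this. In SF539 it read 3.38 and 3.39 with siRNA#2, 3.33 and 3.25 with siRNA#1, and 3.19 and 3.59 with scramble. In SNB19 it read 2.98 and 3.14 with siRNA#2, 3.16 and 3.14 with siRNA#1, and 3.15 and 3.34 with scramble. No siRNA array was above both scramble arrays in either line. The SNB19 contrast of both siRNAs with scramble was -0.14 (limma adjusted p = 0.424), and siRNA#2 against siRNA#1 gave 0.09 in SF539 and -0.09 in SNB19 (limma adjusted p = 0.728 and 0.812). Its correlation with 203139_at over the 12 arrays was -0.0891 with line means subtracted. Its values lie below the lower quartile, and whether low signal hides a change was not tested. The sequences of the probes were not used here.

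**Figure D2:**
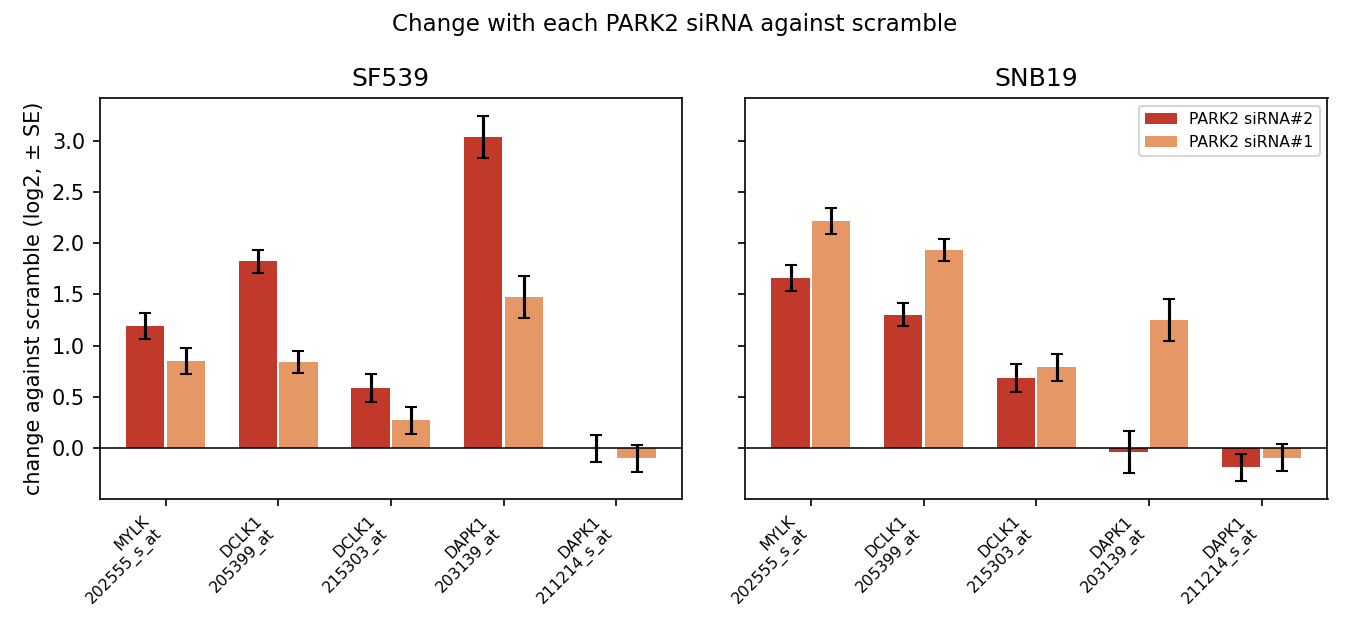
Difference of each PARK2 siRNA from scramble (log2, vertical axis) for the 5 probe sets in SF539 and SNB19; bars are differences of means of 2 arrays and whiskers are standard errors of the fit. DAPK1 203139_at reaches 3.03 in SF539 with siRNA#2 and -0.04 in SNB19 with the same siRNA.

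The reversal of the siRNA order between the lines was tested as 1 contrast, siRNA#2 minus siRNA#1 in SF539 less the same in SNB19. This contrast was added after the values had been seen. It was 2.85 ± 0.29 (SE; interval 2.20 to 3.50) for DAPK1 203139_at (limma adjusted p = 0.000954) and 1.61 ± 0.16 for DCLK1 205399_at (limma adjusted p = 0.000672), where 2.45% of all probe sets passed. Both passed in all 21 alternative settings. For MYLK it was 0.90 ± 0.18 (interval 0.50 to 1.30; limma adjusted p = 0.0323), a call kept in 11 of 21 settings and lost without any 1 SNB19 array or either SF539 siRNA#1 array (adjusted p from 0.0575 to 0.128). The dim probe sets gave 0.42 for DCLK1 215303_at and 0.19 for DAPK1 211214_s_at and did not pass (limma adjusted p = 0.265 and 0.632).

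**Figure D3:**
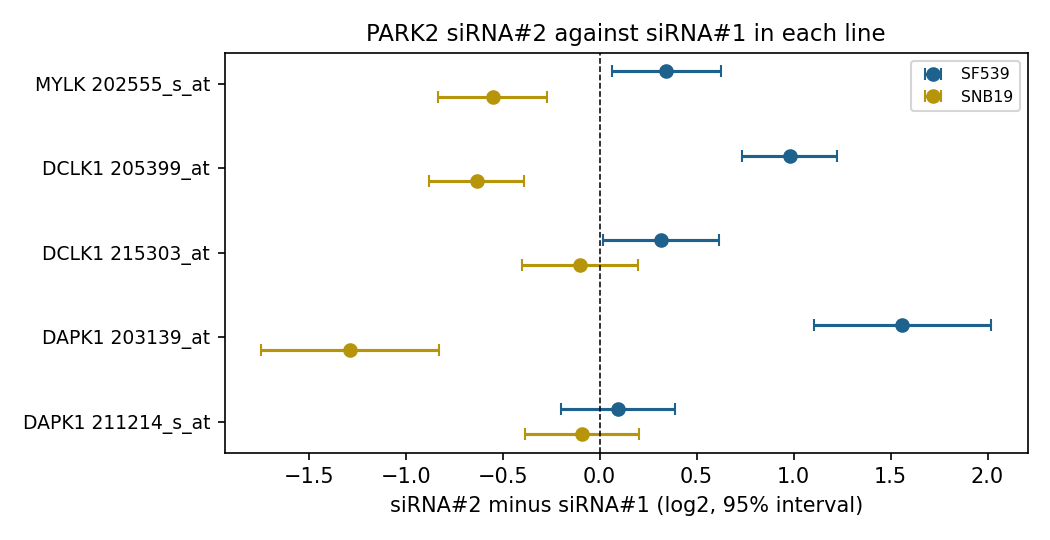
siRNA#2 minus siRNA#1 (log2) for each member probe set in SF539 and SNB19, with 95% intervals of the fit. MYLK, DCLK1 205399_at and DAPK1 203139_at lie above 0 in SF539 and below 0 in SNB19.

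The members were compared over the 12 arrays with the mean of each line subtracted. MYLK and DCLK1 205399_at correlated at 0.937, DCLK1 and DAPK1 203139_at at 0.838, and MYLK and DAPK1 at 0.636. Without the subtraction the same pairs correlated at 0.195, 0.467 and 0.6. These values describe 6 groups of 2 arrays that share scramble arrays within a line, and the genes were chosen for being higher with the siRNAs. Among the brightest probe sets of all genes, those most like MYLK were NBAS (0.987), CMC4 (0.986) and PRKCA (0.985), the last a calcium-dependent protein kinase C. Most like DCLK1 were STON1 (0.981), FTO (0.963) and HDLBP (0.961). Most like DAPK1 were GSN (0.966), which encodes the actin-severing protein gelsolin, OBSL1 (0.96) and PC (0.959). The most opposite were MTX2 for MYLK (-0.981), IDH3A for DCLK1 (-0.972) and PQBP1 for DAPK1 (-0.985).

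Other calmodulin-dependent and related kinases were counted from a list. Here and in the lists below each gene stands by its brightest probe set, while the shares over all probe sets count every probe set. With the brightest probe set of each gene fitted alone, 839 of 8545 genes passed in SF539 and 2806 in SNB19. Of 33 listed kinases 18 were measured; in SF539 none rose and 3 fell at a limma adjusted p under 0.05, and none rose at an unadjusted p under 0.05 either. In SNB19 1 rose and 4 fell. That is 16.7% of the measured kinases in SF539 and 27.8% in SNB19, against 9.09% and 28.6% of all probe sets. In SF539 the count was 1 without any of 8 arrays, namely both scramble and both siRNA#1 arrays of SF539 and both scramble and both siRNA#2 arrays of SNB19. Their median change was -0.10 in SF539 and -0.15 in SNB19, against -0.02 and -0.00 over all probe sets. MAPKAPK3, a kinase downstream of p38, fell by 0.56 in SF539 (limma adjusted p = 0.00475). In SNB19 STK17B, a relative of DAPK1 in the death-associated family, fell by 0.54 (limma adjusted p = 0.000753). Of the closest relatives measured, DAPK2 differed from scramble by 0.27 in SF539 and -0.24 in SNB19. DCLK2 differed by -0.21 and 0.11, and none of these passed. DCLK2 averaged 3.82 over the arrays, below the lower quartile. The listed relatives DAPK3, MYLK2, MYLK3, MYLK4 and DCLK3 were not measured. DAPK2 was lower with siRNA#2 than with siRNA#1 in SNB19, at -0.92 (limma adjusted p = 0.0134), a call lost without the first SNB19 siRNA#1 array (0.136) or either SNB19 siRNA#2 array (0.0606 and 0.12).

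Calmodulin's own genes and regulators were followed next. Of 17 listed genes 10 were measured; 2 rose and 1 fell in SF539, and 3 rose and 1 fell in SNB19, with medians of 0.00 and 0.14. That is 30% and 40% of those measured, against 9.09% and 28.6% of all probe sets, and the SF539 count was 0 without the first SF539 scramble array and 1 without the first SF539 siRNA#1 array. RCAN2, an inhibitor of the calmodulin-dependent phosphatase calcineurin, rose by 1.09 in SF539 (limma adjusted p = 0.00494), a call lost without the first SF539 scramble array (0.052). PPP3CB, a catalytic subunit of calcineurin, rose by 0.47 in SNB19 (limma adjusted p = 0.00141).

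Myosin II genes are the substrate side of MYLK. Of 20 listed genes 14 were measured; none passed in SF539 with limma, where 5 had an unadjusted p under 0.05, and 5 passed without the first SF539 siRNA#2 array. In SNB19 5 rose and 1 fell, 42.9% against 28.6% of all probe sets, with a median of 0.15 there and 0.02 in SF539. PPP1CB, the catalytic subunit of the myosin phosphatase that removes the phosphate MYLK adds, rose by 1.68 in SNB19 (limma adjusted p = 3.67e-06). MYH10, a nonmuscle myosin heavy chain, rose by 0.82 (limma adjusted p = 0.000225). MYL9, a regulatory light chain that MYLK phosphorylates, was 1.04 above scramble in SF539 without passing (limma adjusted p = 0.059).

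Smooth muscle and contractile genes were measured for 13 of 14. In SF539 1 rose and 1 fell; in SNB19 5 rose and 1 fell, and their median was 0.16 in SF539 and 0.36 in SNB19. That is 15.4% and 46.2% of those measured, against 9.09% and 28.6% of all probe sets. The SF539 count was 0 without the first scramble array and 6 without the first siRNA#2 array. CNN1, the actin-binding calponin, rose by 0.68 in SNB19 (limma adjusted p = 0.000343), and ACTG2, a smooth muscle actin, by 0.86 (limma adjusted p = 0.00076). CNN1 was higher with siRNA#2 than with siRNA#1 in SNB19, by 0.95 (limma adjusted p = 0.00096), the opposite order to MYLK. In SNB19 CNN1 averaged 5.58 with siRNA#2, 4.63 with siRNA#1 and 4.43 with scramble, so most of its pooled rise came from siRNA#2. SMTN, the contractile protein smoothelin, fell by 0.81 in SF539 (limma adjusted p = 0.0121) and lost the call without the first SF539 scramble array (0.108). The count in SNB19 ranged from 3 to 9 when 1 array was left out, at 3 without either scramble array, the second siRNA#1 array or the second siRNA#2 array.

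Microtubule and doublecortin-related genes were measured for 12 of 13. In SF539 1 rose and 1 fell, and in SNB19 4 rose and none fell, nor did more than 1 fall at an unadjusted p under 0.05; the medians were 0.09 and 0.10. That is 16.7% and 33.3% of those measured, against 9.09% and 28.6% of all probe sets. The SNB19 count was 2 without either SNB19 scramble array and 7 without either SF539 siRNA#2 array, and the SF539 count was 6 without the first SF539 siRNA#2 array. MAP1B, a microtubule-associated protein of neurons, fell by 0.44 in SF539 (limma adjusted p = 0.0057) and rose by 0.78 in SNB19 (limma adjusted p = 3.01e-05). TUBA1A, an alpha tubulin, rose by 0.70 in SNB19 (limma adjusted p = 3.8e-05). DCX, doublecortin itself, averaged 3.31 over the arrays, below the lower quartile, and differed from scramble by -0.07 in SF539 and -0.14 in SNB19.

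Death and autophagy genes linked to DAPK1 made up the last list. Of 16 listed genes 11 were measured; none passed in SF539 with limma, where 4 had an unadjusted p under 0.05, and 3 passed without the first SF539 siRNA#2 array. In SNB19 none rose and 5 fell by limma (2 were higher at an unadjusted p under 0.05), with a median of -0.27 there and -0.02 in SF539. That is 45.5% in SNB19, against 28.6% of all probe sets, and 8 genes passed in SNB19 without either SF539 siRNA#2 array or with the SNB19 arrays alone. MCM3 was 0.28 above scramble in SNB19 (limma adjusted p = 0.0593) and BECN1 also 0.28 (limma adjusted p = 0.11). FAS, a death receptor, fell by 1.74 in SNB19 (limma adjusted p = 1.54e-06). PRKD1, a kinase that DAPK1 is known to activate, fell by 0.78 (limma adjusted p = 2.55e-05). CASP8, the initiator caspase below FAS, fell by 0.79 (limma adjusted p = 8.99e-05).

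The SF539 calls in these lists rest on the spread taken from both lines. All 10 genes named or eligible to be named there lost the call when SF539 arrays were fitted alone, with adjusted p from 0.0559 to 0.184. Centring each array on its median put the median of all changes in SNB19 at 0.13, against -0.00 as deposited. The share of calls that were higher was then 70.4% in SNB19, against 49.5% as deposited, and 42.5% in SF539, against 55.4%. In the contrasts recomputed, the members kept their directions from scramble except DAPK1 in SNB19, where 203139_at with siRNA#2 turned as given above and 211214_s_at with siRNA#1 turned to 0.02, against -0.09 as deposited; neither passed.

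**Figure D4:**
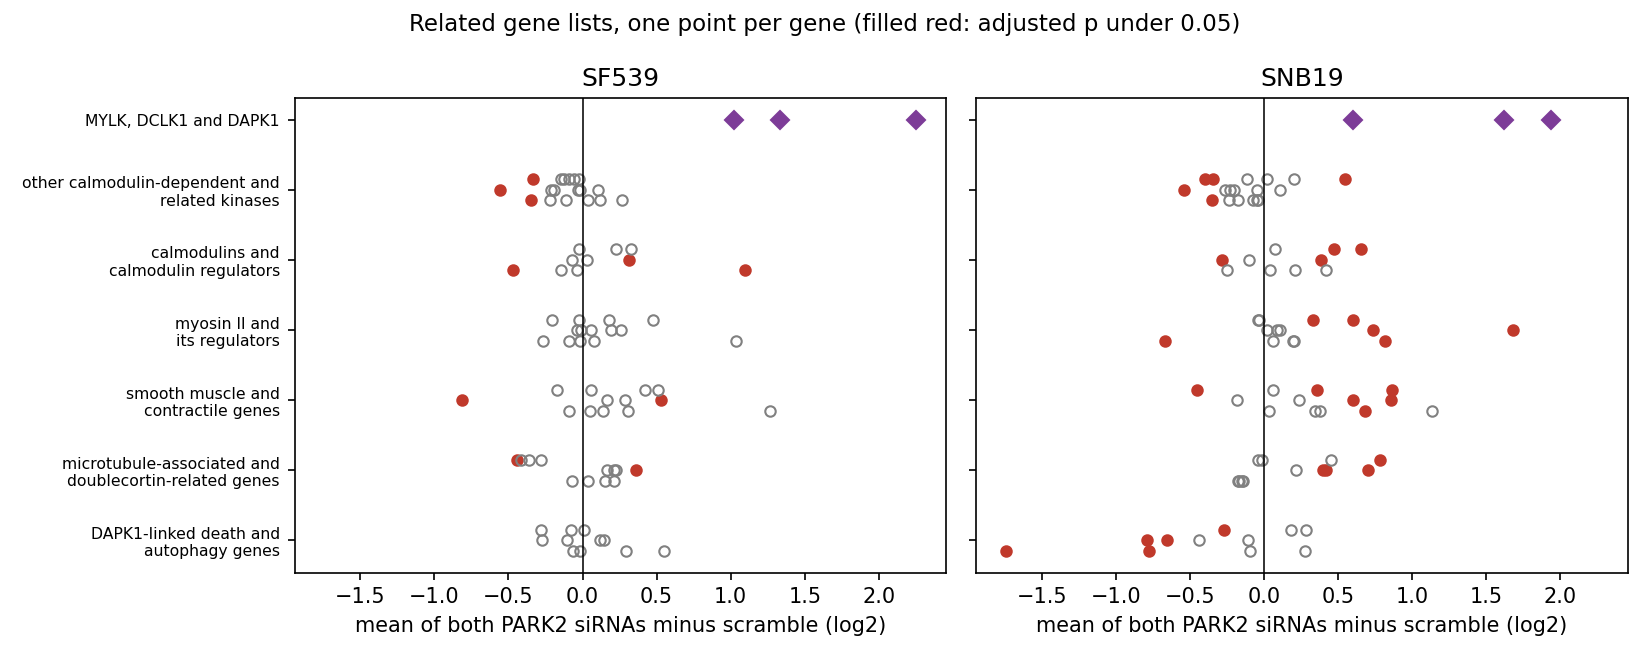
Change with the PARK2 siRNAs against scramble (log2) for each measured gene of the 6 lists in SF539 and SNB19; red points passed a limma adjusted p of 0.05 and diamonds are MYLK, DCLK1 and DAPK1. Most list genes sit near 0, and the medians of the lists range from -0.27 to 0.36.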

How the data were processed

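Total RNA from 12 transfected samples was labelled with biotin and hybridised to Affymetrix arrays, per the labels' protocols. The deposited table holds log2 expression values per probe set, 1 column per array; Partek is named in the submitters' processing notes without a version, and for background correction, normalization and summarisation the method is not given in the sources used here. The log2 scale was read from the values, between 2.01 and 14.1, and nothing was renormalized. Of 16376 probe sets 14038 name 1 gene, 792 several and 1546 none; 14028 were matched to current RefSeq symbols (GRCh38.p14), leaving 8545 genes. The number of arrays limits the precision.

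All 12 arrays were fitted with a mean per group in limma 3.58.1 (R 4.3.3; 6 residual and 3.88 prior degrees of freedom), and p-values were adjusted by Benjamini-Hochberg over all probe sets, with a threshold of 0.05. A gene with several probe sets stands by its brightest one in lists and rankings. List genes named with a passing call were among those with the smallest p in each list and contrast. MYL9, MCM3, BECN1, DCX, DCLK2 and the DAPK2 differences from scramble did not pass and were named outside this rule. The members and lists were chosen with earlier results of these data known. Alternatives were quantile normalization, median centring, a filter leaving out the dimmest 40%, other probe-set summaries, a trended robust prior, array weights, a minimum fold of 1.5, a replicate block, each line alone and each array left out. Figures were drawn with matplotlib 3.10.9.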

Additional observations from a re-analysis of the deposited data

Results flagged for a closer look

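The difference of the MYLK response between the lines, SF539 minus SNB19, was -0.91 (limma adjusted p = 0.00327), the same siRNAs giving a smaller rise in SF539. The contrast of siRNA#2 with siRNA#1 differed between SF539 and SNB19 for all 3 genes, by 0.90 for MYLK (limma adjusted p = 0.0323), 1.61 for DCLK1 205399_at (limma adjusted p = 0.000672) and 2.85 for DAPK1 203139_at (limma adjusted p = 0.000954). The contrast between lines was added after the reversed order of the siRNAs had been seen in these same genes, so its p-values are no independent support, and the MYLK call held in 11 of 21 alternative settings. What stands behind these differences was not tested.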

How the results depend on the processing

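With the replicate number as a block, MYLK in SNB19 with siRNA#2 against siRNA#1 was -0.55 (limma adjusted p = 0.0598) and its line difference 0.90 (adjusted p = 0.05005), both past the threshold without it; no other call of a member changed. Same-numbered arrays of different groups had deviations correlated between -0.2 and 0.0954. Such values cannot settle whether the numbers mark a shared day or batch, which the labels do not say. No result of a called member reversed.

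For the counts of probe sets passing, the brightest probe set per gene gave 839 (SF539, both siRNAs), 2806 (SNB19, both), 1295 (SF539 siRNA#2), 2540 (SNB19 siRNA#2), 2228 (SNB19 siRNA#1), 1629 (line difference in response), 4212 (lines with scramble) and 4636 (lines with siRNAs). The mean of probe sets gave 833, 2667, 1244, 2379, 2141, 1584, 4200 and 4623 in that order; both settings test fewer features. A minimum fold of 1.5 gave 53, 659, 141, 682, 590, 432, 2430 and 2718, with 2 for SF539 siRNA#1, 4 and 61 for siRNA#2 against siRNA#1 in SF539 and SNB19, and 47 for its line difference. Array weights gave 933 (SF539, both), 677 (SF539 siRNA#2), 585 (SF539 siRNA#1), 60 and 2022 (siRNA#2 against siRNA#1 in SF539 and SNB19). SF539 arrays alone gave 298, 525, 3 and 3 for both siRNAs, siRNA#2, siRNA#1 and siRNA#2 against siRNA#1, and SNB19 arrays alone 1538 for the last. Leaving out the dimmest 40% gave 502 for SF539 siRNA#1, and the trended robust prior 483, with 438 for SF539 siRNA#2 against siRNA#1.

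Averaging probe sets put DCLK1 at 0.88 in SF539 and 1.18 in SNB19 and its SNB19 siRNA#2 against siRNA#1 at -0.37 (adjusted p = 0.0601). DAPK1 was then 1.10 in SF539 and 0.23 in SNB19, 0.87 for the line difference and -0.44 between the lines with scramble. Median centring put SNB19 MYLK at 2.07, SNB19 DCLK1 at 1.75 and the DCLK1 line difference at -0.46 (adjusted p = 0.0375, past the threshold only here). With a minimum fold of 1.5 these values no longer passed: MYLK -0.55 (SNB19 siRNA#2 against siRNA#1), -0.91, 0.35 and 0.90; DCLK1 0.98 and -0.63; DAPK1 0.60, 1.24, 1.56 and -1.29. SF539 arrays alone left DCLK1 at 0.98 and DAPK1 at 1.56 without passing. The cause of these shifts was not tested.

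Leaving out 1 array in turn, the counts ranged over 679 to 3070 (SF539, both), 2840 to 5797 (SNB19, both), 1202 to 4026 (SF539 siRNA#2), 14 to 1034 (SF539 siRNA#1), 2619 to 5338 (SNB19 siRNA#2), 2320 to 4937 (SNB19 siRNA#1), 4 to 3395 and 180 to 1464 (siRNA#2 against siRNA#1 in SF539 and SNB19), 1522 to 4228 (line difference in response) and 119 to 3109 (line difference of the siRNAs). The member values ranged over 1.87 to 2.00 (MYLK in SNB19), -0.56 to -0.54 (siRNA#2 against siRNA#1 in SNB19) and 0.71 to 1.08 (its line difference). DCLK1 ranged over 0.89 to 1.07 and -0.71 to -0.56 for the siRNAs in SF539 and SNB19. DAPK1 ranged over 0.55 to 0.66 in SNB19, 1.29 to 1.83 and -1.39 to -1.18 for the siRNAs in SF539 and SNB19, and 1.39 to 1.92 for the line difference. The SF539 list counts ranged over 1 to 3 (kinases), 0 to 4 (calmodulins), 0 to 5 (myosin), 0 to 6 (contractile), 1 to 6 (microtubule) and 0 to 3 (death), and the SNB19 counts over 4 to 5, 3 to 6, 4 to 7, 3 to 9, 2 to 7 and 4 to 8 in that order. Both dim probe sets averaged below the lower quartile, and how far low signal limits them was not tested.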
